A study of Mus musculus with 4 samples.

Results

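The genes described here encode the enzymes of glycolysis and the transporters that carry glucose, lactate and pyruvate, in 4T1, a cell line from a mouse mammary carcinoma. The members are 31 genes listed by name for their function, all 31 of which were found among the 16695 genes of the deposited table. RNA was sequenced from 2 libraries of wild-type 4T1 cells (WT) and 2 libraries labelled DHODH KO, from 4T1 cells in which Dhodh was knocked out. The product of that gene, dihydroorotate dehydrogenase, sits in mitochondria, makes orotate for pyrimidine synthesis and hands electrons to ubiquinone. The labels name no treatment or time for either genotype, and they give neither how the gene was disrupted, nor whether the knockout line is a single clone, nor whether the libraries of a genotype come from different cultures. The p-values below therefore measure the spread between these libraries, which may be technical.

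Glycolysis splits glucose into pyruvate in the cytosol. Its preparatory steps spend ATP to trap and cleave the sugar, and its payoff steps regain ATP and reduce NAD. Pyruvate is then either reduced to lactate by lactate dehydrogenase and exported with a proton by monocarboxylate transporters, or taken into mitochondria by the mitochondrial pyruvate carrier. Tumour cells commonly run the lactate branch even in oxygen, and many of these genes are textbook targets of the transcription factors HIF-1 and MYC.

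Values are FPKM, fragments per gene length and per library size. They are not corrected for differences in composition between libraries. Levels of genes with near copies, given below, are uncertain when set against other genes. Differences are log2 fold changes, KO minus WT, of FPKM + 1, with their SE. Adjusted p-values are Benjamini-Hochberg values of limma-trend over all 10170 genes that averaged 1 FPKM or more, and a gene is said to rise or fall where the adjusted p is under 0.05. Folds are ratios of mean FPKM and do not depend on the added 1. In a bulk library, fewer cells with a transcript and less of it per cell cannot be told apart.

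Library facts bear on some of the members. The FPKM steps gave back whole reads for 16424 genes, which totalled between 23554854 and 26103002 per library, without the most abundant genes. The epithelial markers Epcam, Krt7, Krt8, Krt14, Krt18, Krt19 and Cdh1, all 7 of them measured, summed to between 1960 and 1980 FPKM in every library. Within that sum Krt19 was higher in KO (68.1 and 66.9 FPKM in WT, 139 FPKM in each KO library), as was Epcam, while Krt8, Krt18 and Cdh1 were lower in both KO libraries than in both WT libraries. DHODH KO replicate 2 stood apart, since it held all 12 heart muscle markers at their highest level. Without Tnnt2, which all libraries expressed, the other 11 summed to 88.2 FPKM there and to at most 0.308 FPKM elsewhere, with Myh6, Actc1 and Myl2 listed at 0 in the other 3 libraries. The same library was highest for the red blood cell list (14.0 FPKM against at most 0.774), the kidney list (9.73 against at most 0.0176) and the list of fibroblasts and endothelium (8.25 against at most 0.463). Dhodh itself was only slightly lower in KO, at 10.9 and 10.3 FPKM in WT and 9.67 and 8.69 FPKM in KO (log2 fold change -0.19 ± 0.068, adjusted p = 0.0425), and a sum over the gene cannot show a small lesion.

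**Figure D1:**
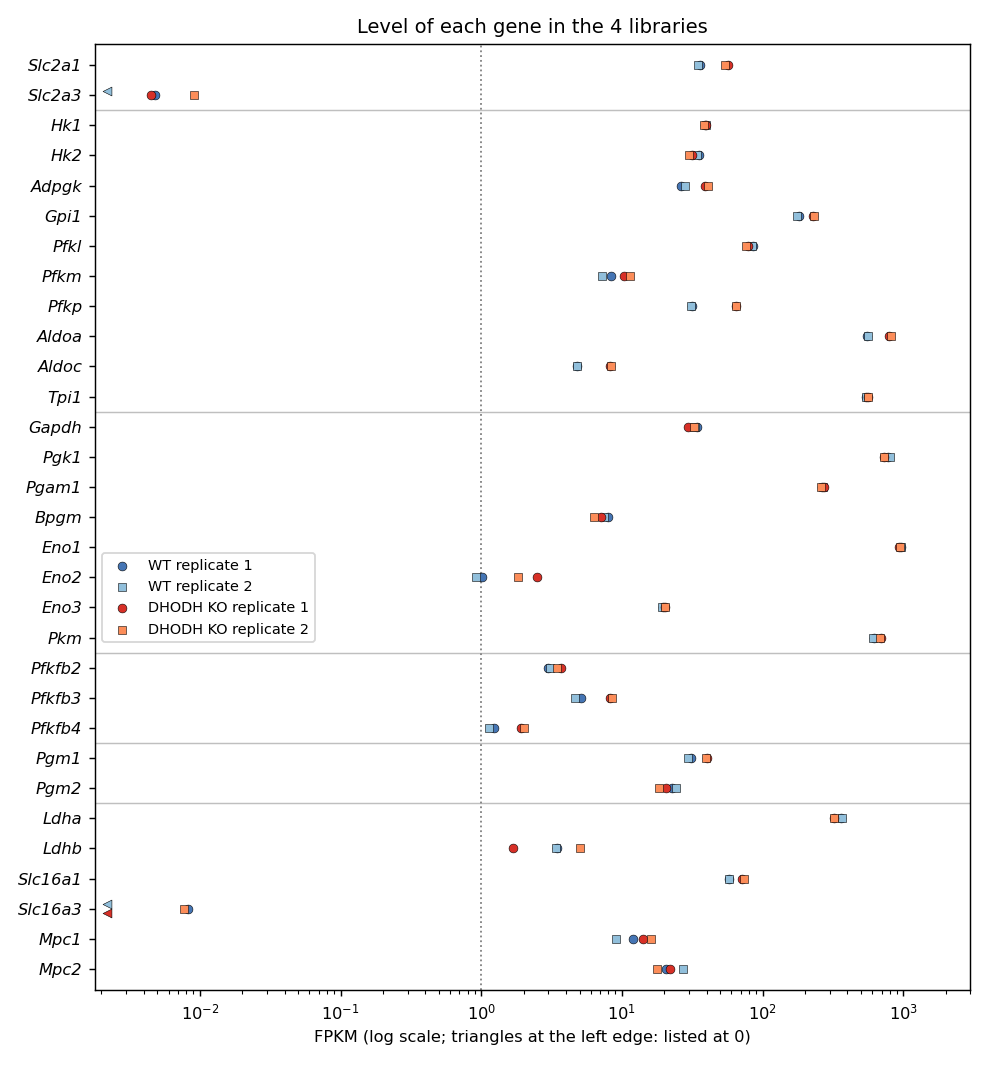
FPKM of the 31 genes on a log axis, 1 row per gene and 1 point per library, grouped by role from glucose uptake at the top to lactate and pyruvate handling at the bottom; the dotted line is the filter at 1 FPKM. Aldoa, Tpi1, Pgk1, Eno1 and Pkm lie highest, at 542.7 FPKM or more, while Slc2a3 and Slc16a3 lie below 0.01 FPKM in every library.

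Glycolytic genes moved both ways in the DHODH KO cells. Of the 29 members that passed the expression filter, 14 rose, 5 fell and 10 were not called. The called share, 65.5%, was near the 64.7% of all tested genes. The risers made up 48.3% of the tested members, against 35.6% of all tested genes, and those that fell 17.2%, against 29.1%. The median log2 fold change of the members was 0.16, beside 0.04 over all genes tested. The genotypes did not overlap for 25 of the 29 members (86.2%), against 83.4% of all tested genes; KO lay above WT for 17 (background 45.6%) and below it for 8 (background 37.9%). Without DHODH KO replicate 2, every called member kept the sign of its log2 fold change. Most changes were small. A log2 fold change of 0.5 or more, in either direction, was reached by 7 called members (24.1%), against 21.4% of tested genes. All 7 rose, and they were Pfkp, Pfkfb3, Eno2, Aldoc, Slc2a1, Adpgk and Aldoa. Of these, Eno2 passed the filter only through its KO values, as given below.

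The change was uneven along the pathway. Summed FPKM of the 10 genes of the preparatory steps was 1508 and 1510 FPKM in WT and 1858 and 1877 FPKM in KO. The 8 genes of the payoff steps summed to 2677 and 2703 FPKM in WT and to 2694 and 2677 FPKM in KO. The KO sums of the preparatory steps thus lay above both WT sums, with a ratio of 1.24, while those of the payoff steps overlapped with WT (ratio 0.998). The 31 genes together took 1.21% and 1.2% of all FPKM in WT and 1.31% and 1.28% in KO. These sums are descriptions, and they are carried by the most abundant genes, Aldoa for the preparatory steps and Eno1, Pgk1 and Pkm for the payoff steps. Of these, Eno1 and Pgk1 share much of their sequence with other genes, as given below, so the payoff sums rest in part on uncertain levels.

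**Figure D2:**
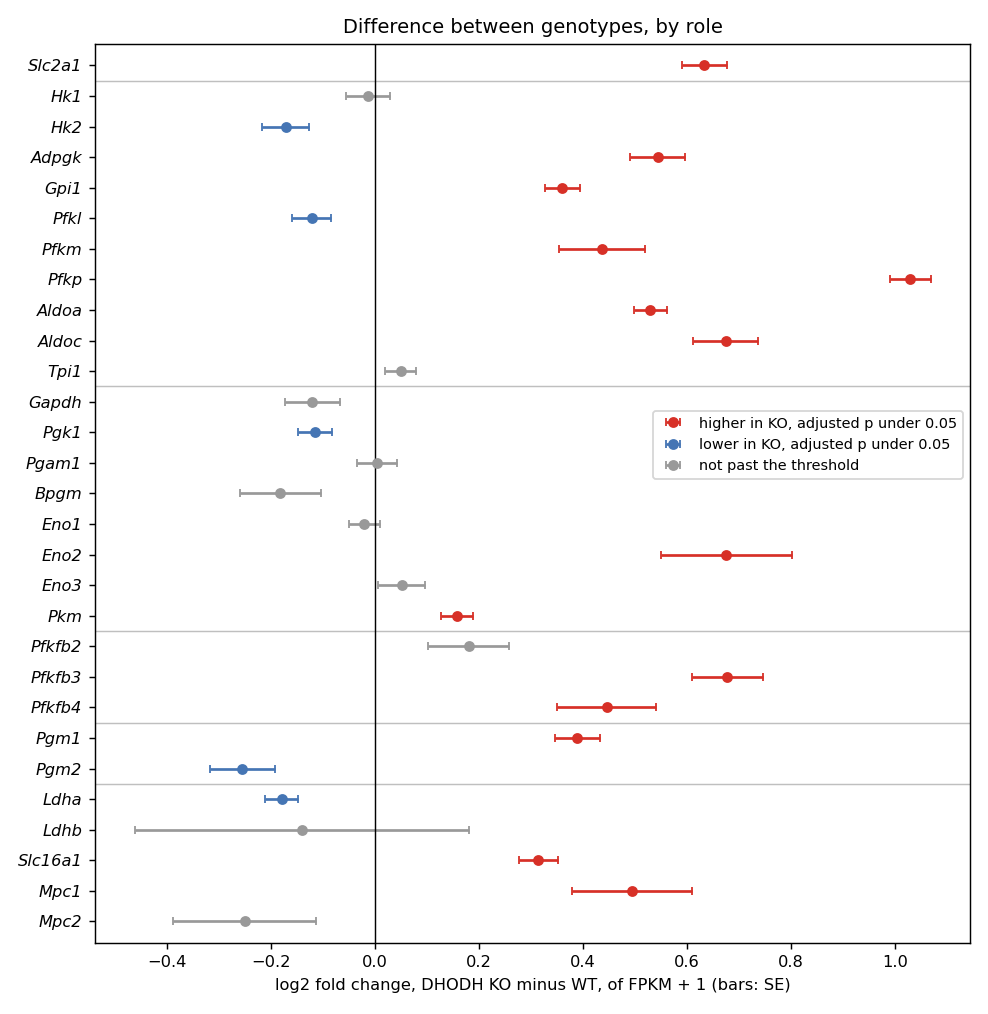
Log2 fold change of FPKM + 1, DHODH KO minus WT, of the 29 tested genes, with SE as bars and color for the call at an adjusted p under 0.05. Red points crowd in the preparatory block and the block of fructose-2,6-bisphosphate enzymes, Pfkp lies farthest right at 1.03, and the payoff block runs from -0.18 for Bpgm to 0.68 for Eno2, with Pgk1 as its only called fall.

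Promoter sequence was examined because HIF-1 and MYC bind short core motifs near the start sites of many glycolytic genes. RefSeq windows of build GRCm38.p6, which span each start site, matched 30 of the 31 genes (45 windows, as some genes have several starts), all but Slc2a3. The letters ACGTG and GCGTG, the core of the hypoxia response element, were searched on both strands, and CACGTG, the E-box, which itself holds ACGTG on both strands. ACGTG or GCGTG was present for 26 of 30 members (86.7%), against 70.2% of 8268 tested genes with a window and 46.7% of all 27025 genes. It was found for 12 of the 14 members that rose, all 5 that fell and 8 of the 10 not called, as well as for the untested Slc16a3, so members with and without a change both hold it. ACGTG alone was in the windows of 60.0% of members, 30.5% of tested genes and 21.8% of all genes, and CACGTG in 16.7%, 12.4% and 8.09%. These shares count a gene with a match in any window, and members had 45 windows for 30 genes, tested genes 10556 for 8268. Per window, ACGTG or GCGTG was in 80% for members and 64.1% for tested genes. The window shares were 48.9% and 26.3% for ACGTG, and 11.1% and 10.4% for CACGTG. The windows of 4 genes with a single start are shown, with matches in capitals: Slc2a1 and Pfkp, which rose, and Hk2 and Pgk1, which fell. They lie at chr4:119108495-119108794 (+ strand), chr13:6648722-6649021 (- strand), chr6:82774405-82774704 (- strand) and chrX:106186850-106187149 (+ strand), and each is written 5′ to 3′ on the strand of its gene.
Slc2a1: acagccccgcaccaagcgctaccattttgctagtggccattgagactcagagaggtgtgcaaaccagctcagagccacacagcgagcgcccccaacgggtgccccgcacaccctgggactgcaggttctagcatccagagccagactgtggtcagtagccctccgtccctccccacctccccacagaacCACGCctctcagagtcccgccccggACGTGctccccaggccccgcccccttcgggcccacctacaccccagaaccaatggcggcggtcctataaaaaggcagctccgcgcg
Pfkp: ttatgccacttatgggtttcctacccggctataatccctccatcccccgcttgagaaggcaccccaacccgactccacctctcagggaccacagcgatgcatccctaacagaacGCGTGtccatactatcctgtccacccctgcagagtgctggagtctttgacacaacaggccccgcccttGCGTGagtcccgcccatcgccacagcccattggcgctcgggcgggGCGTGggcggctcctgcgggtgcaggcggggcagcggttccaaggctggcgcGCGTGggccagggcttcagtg
Hk2: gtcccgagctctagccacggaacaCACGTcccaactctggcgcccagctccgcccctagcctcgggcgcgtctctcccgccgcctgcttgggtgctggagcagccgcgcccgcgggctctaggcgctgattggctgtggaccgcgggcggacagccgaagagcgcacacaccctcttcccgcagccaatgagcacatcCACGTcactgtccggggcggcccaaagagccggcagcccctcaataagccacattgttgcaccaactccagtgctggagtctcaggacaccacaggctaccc
Pgk1: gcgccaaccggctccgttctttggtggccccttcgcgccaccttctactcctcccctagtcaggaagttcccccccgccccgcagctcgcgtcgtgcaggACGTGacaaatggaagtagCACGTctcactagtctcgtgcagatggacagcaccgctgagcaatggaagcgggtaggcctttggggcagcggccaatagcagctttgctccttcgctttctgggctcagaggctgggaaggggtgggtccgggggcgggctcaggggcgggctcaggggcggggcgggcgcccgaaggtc
Counted from the start site, Slc2a1 holds ACGTG at -36 and GCGTG on the other strand at -61, and Pfkp holds GCGTG at -136, -68, -23 and 30. Hk2 holds ACGTG on the other strand at -226 and -52, and Pgk1 holds it at -150 and, on the other strand, at -131. A match is only a run of letters and does not show that a factor binds there.

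Of the 2 glucose transporter genes among the members, Slc2a1, which encodes GLUT1, was expressed, and it rose. Slc2a8 and Slc2a6, outside the member list and named after their values were seen, also passed the filter. Slc2a8 measured 0.810 and 0.743 FPKM in WT and 1.51 and 1.11 FPKM in KO and rose (log2 fold change 0.37 ± 0.122, adjusted p = 0.0293). Its WT mean of 0.777 FPKM lay under the filter, so Slc2a8 was tested only through its KO values. Slc2a6 was not called (0.21 ± 0.118, adjusted p = 0.151). Slc2a1 measured 36.1 and 34.6 FPKM in WT and 56.4 and 54.4 FPKM in KO. Both KO libraries were higher than both WT libraries, by 1.57-fold in the mean (log2 fold change 0.63 ± 0.043, adjusted p = 2.4e-05). Slc2a3, which encodes the high-affinity neuronal transporter GLUT3, had 4 reads over all libraries, with 0 in WT replicate 2, where a count of 0 allows up to 0.0148 FPKM, and was not tested.

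The hexokinases trap glucose as glucose-6-phosphate, and neither rose. Hk1, the widely expressed form, measured 39.1 and 39.5 FPKM in WT and 39.7 and 38.1 FPKM in KO. These groups overlapped, with a log2 fold change of -0.01 ± 0.042. Hk2, the inducible form typical of tumours and muscle, measured 35.3 and 34.4 FPKM in WT and 31.6 and 30.0 FPKM in KO. Hk2 fell by 0.17 ± 0.045 on the log2 scale (adjusted p = 0.0128), a call lost without WT replicate 1 (adjusted p = 0.0773, the highest of a range from 5.6e-04 over the 15 alternatives that set no minimum fold). Hk1 therefore held 52.6% and 53.4% of hexokinase FPKM in WT and 55.7% and 55.9% in KO. Adpgk, which phosphorylates glucose with ADP in place of ATP, went the other way. It measured 26.2 and 28.04 FPKM in WT and 38.7 and 41.2 FPKM in KO, 1.47-fold higher (log2 fold change 0.54 ± 0.053, adjusted p = 1.2e-04), and the groups did not overlap.

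Gpi1 and the phosphoglucomutase reaction lie on either side of glucose-6-phosphate. Gpi1, the isomerase that makes fructose-6-phosphate, measured 181.8 and 176.3 FPKM in WT and 229.4 and 230.5 FPKM in KO, 1.28-fold higher (log2 fold change 0.36 ± 0.033, adjusted p = 9.3e-05). The phosphoglucomutase reaction exchanges glucose-6-phosphate and glucose-1-phosphate, the entry to and exit from glycogen. Pgm1 and Pgm2 are grouped under it by name, and RNA does not show how much of the reaction either product carries out. Pgm1 measured 30.8 and 29.7 FPKM in WT and 40.4 and 39.4 FPKM in KO and rose 1.32-fold (adjusted p = 2.1e-04). Pgm2 measured 22.5 and 24.3 FPKM in WT and 20.4 and 18.5 FPKM in KO and fell by 0.26 ± 0.063 on the log2 scale (adjusted p = 0.0097). The fall of Pgm2 was lost without WT replicate 2 (adjusted p = 0.0507) and with no filter on low values (0.0651), over a range of 0.00144 to 0.0651. Pgm1 took 57.8% and 55.0% of the FPKM of this pair in WT and 66.4% and 68.1% in KO.

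Phosphofructokinase, the committed step of glycolysis, changed its isoform makeup. The enzyme is a tetramer of liver (Pfkl), muscle (Pfkm) and platelet (Pfkp) subunits. Pfkp measured 31.7 and 30.8 FPKM in WT and 65.1 and 64.5 FPKM in KO. The KO libraries lay far above WT and close to each other, 2.07-fold higher (log2 fold change 1.03 ± 0.039, adjusted p = 2.4e-06). Pfkp was also the only member called by limma's treat test against a log2 fold change of 0.5, which called 8.73% of all tested genes. Pfkl, the most abundant subunit, measured 84.9 and 83.9 FPKM in WT and 79.1 and 75.9 FPKM in KO. It fell by 0.12 ± 0.038 on the log2 scale (adjusted p = 0.0247), but not past the threshold without WT replicate 1 (adjusted p = 0.129), when WT replicate 2 (0.0887) or DHODH KO replicate 2 (0.0707) was left out, or without the variance trend (0.0814), over a range from 0.00194 to 0.129.

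Pfkm was the least abundant subunit, at 8.37 and 7.23 FPKM in WT and 10.4 and 11.4 FPKM in KO, and rose 1.40-fold (log2 fold change 0.44 ± 0.082, adjusted p = 0.00263). Heart muscle expresses this isoform, and the library with heart muscle markers had the highest value. Without that library the log2 fold change was 0.37 (adjusted p = 0.00673), and the part of the heart muscle transcripts in the Pfkm value was not tested. Wherever a library was left out, its genotype was represented by 1 library, which limma assumes to vary like the other genotype and the variance trend, so such p-values hold no replicate spread for it. Platelet subunit RNA made up 25.4% and 25.2% of phosphofructokinase FPKM in WT and 42.1% and 42.5% in KO, while the mean share of the liver subunit went from 68.4% to 50.6%. Summed over the 3 subunits, the level was 125.0 and 121.9 FPKM in WT and 154.6 and 151.8 FPKM in KO.

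**Figure D3:**
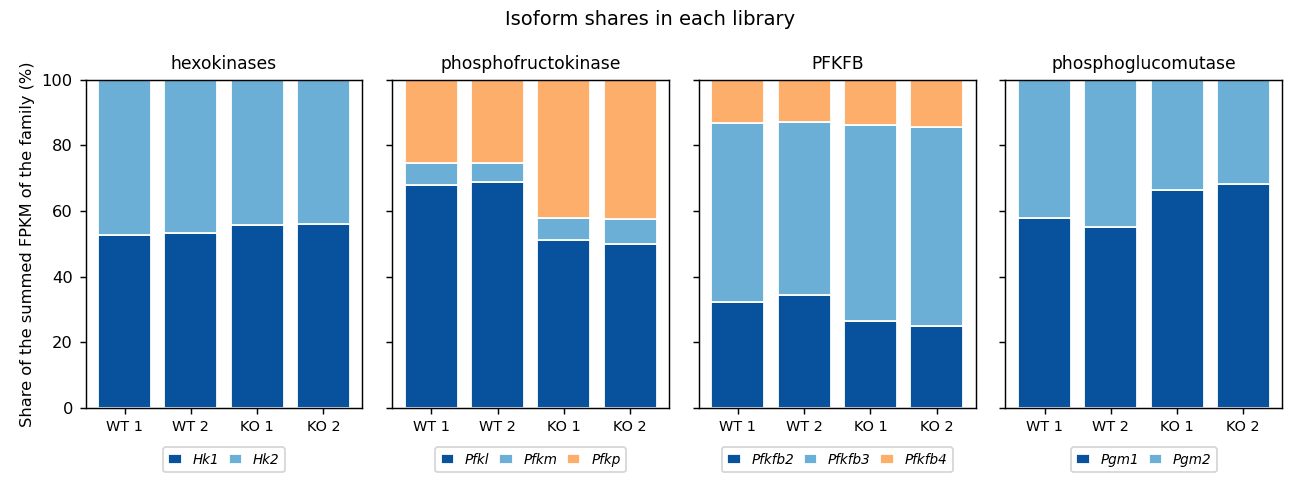
Share of each isoform in the summed FPKM of its family, in percent, 1 bar per library, for hexokinases, phosphofructokinase, the PFKFB enzymes and phosphoglucomutases. The Pfkp segment grows from 25.4% and 25.2% of the bar in WT to 42.1% and 42.5% in KO, while the hexokinase bars change least.

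The PFKFB enzymes make and remove fructose-2,6-bisphosphate, the strongest activator of phosphofructokinase, and of the 3 members of this family Pfkfb3 and Pfkfb4 rose while Pfkfb2 was not called. Pfkfb1, a relative outside the member list, fell and is given with the related genes. Pfkfb3, whose kinase activity dominates, measured 5.08 and 4.67 FPKM in WT and 8.28 and 8.49 FPKM in KO, 1.72-fold higher (log2 fold change 0.68 ± 0.068, adjusted p = 1.4e-04). Pfkfb4, a hypoxia-inducible form, measured 1.23 and 1.14 FPKM in WT and 1.92 and 2.03 FPKM in KO, 1.67-fold higher (0.45 ± 0.095, adjusted p = 0.00487). Both rose in each KO library above both WT libraries, and the recovered reads behind Pfkfb4 were 214, 195, 357 and 377. Pfkfb2, the heart form, measured 3.01 and 3.06 FPKM in WT and 3.68 and 3.46 FPKM in KO. Its groups did not overlap, but its log2 fold change of 0.18 ± 0.078 was not past the threshold (adjusted p = 0.0786); it was called without the variance trend (0.0277) and by voom on recovered reads (0.0220), over a range of 0.0220 to 0.393. With a pseudocount of 5 in place of 1 the log2 fold changes of these low genes shrank, to 0.44 for Pfkfb3 and 0.17 for Pfkfb4.

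Aldolase, which cleaves fructose-1,6-bisphosphate, rose in both measured forms. Aldoa, the main form in muscle and tumours, measured 553.3 and 559.3 FPKM in WT and 792.9 and 813.6 FPKM in KO, 1.44-fold higher (log2 fold change 0.53 ± 0.032, adjusted p = 1.4e-05). It gained more FPKM than any other member. Aldoc, the brain form, measured 4.80 and 4.82 FPKM in WT and 8.197 and 8.35 FPKM in KO, 1.72-fold higher (log2 fold change 0.67 ± 0.063, adjusted p = 9.5e-05, and 0.44 with a pseudocount of 5). Tpi1, which interconverts the products of aldolase, measured 542.7 and 546.2 FPKM in WT and 562.8 and 563.6 FPKM in KO. Its log2 fold change of 0.05 ± 0.030 was not past the threshold (adjusted p = 0.189), except with quantile normalization (0.10, adjusted p = 0.00998, over a range up to 0.838). The FPKM ratio of Aldoa to Tpi1, adjacent enzymes, was 1.02 in both WT libraries and 1.41 and 1.44 in KO.

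In the payoff steps most genes were abundant and differed little. Gapdh, the NAD-dependent dehydrogenase, measured 34.3 and 33.2 FPKM in WT and 29.6 and 32.3 FPKM in KO, and its log2 fold change of -0.12 ± 0.053 was not past the threshold (adjusted p = 0.0796). It was called without DHODH KO replicate 2 (-0.18, adjusted p = 0.0118) and with median-ratio scaling (0.0298), over a range up to 0.325. Pgk1, the kinase that makes the pathway's first ATP, measured 775.7 and 804.8 FPKM in WT and 727.8 and 731.2 FPKM in KO. Pgk1 fell by 0.12 ± 0.033 on the log2 scale (adjusted p = 0.0179), a call lost without WT replicate 2 (adjusted p = 0.170), with no filter (0.0812) and without the variance trend (0.0897), over a range from 0.00423.

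Phosphoglycerate mutase RNA did not separate the genotypes. Pgam1 measured 264.1 and 267.3 FPKM in WT and 275.1 and 258.0 FPKM in KO, so that WT lay between the KO libraries. Its log2 fold change of 0.00 ± 0.039 changed sign with median-ratio scaling (-0.04), quantile normalization (-0.01) and voom (-0.02) and was called in none of them. Bpgm, which makes the hemoglobin regulator 2,3-bisphosphoglycerate, measured 8.01 and 7.42 FPKM in WT and 7.10 and 6.28 FPKM in KO. Its log2 fold change of -0.18 ± 0.077 was not past the threshold (adjusted p = 0.0719), though it was without DHODH KO replicate 1 (-0.26, adjusted p = 0.0350), with median-ratio scaling (0.0392), with quantile normalization (0.0305) and with the replicate number as a block (0.0408), over a range up to 0.318.

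Enolase and pyruvate kinase close the pathway. Eno1, the form of most tissues, measured 957.0 and 955.9 FPKM in WT and 938.0 and 947.6 FPKM in KO and was the most abundant member. Its log2 fold change of -0.02 ± 0.030 was not past the threshold (adjusted p = 0.569) and was 0.08 with quantile normalization (adjusted p = 0.0151, over a range up to 0.763). Eno2, the neuronal form, measured 1.02 and 0.918 FPKM in WT and 2.50 and 1.82 FPKM in KO, resting on 118, 104, 308 and 225 recovered reads. The KO library with the higher value also had the highest sum of brain markers, and the part of brain transcripts in the Eno2 value was not tested. Eno2 rose 2.23-fold (log2 fold change 0.68 ± 0.126, adjusted p = 0.00257). Its WT mean of 0.969 FPKM lay under the filter, so Eno2 was tested only through its KO values. With no filter its adjusted p was 0.0311. Its log2 fold change was 1.07 for a pseudocount of 0.1 and 0.26 for a pseudocount of 5. Eno2 held 0.260% or less of enolase FPKM in every library. Eno3, the muscle form, measured 19.5 and 19.2 FPKM in WT and 20.1 FPKM in each KO library, with a log2 fold change of 0.05 ± 0.045 (adjusted p = 0.353). The KO library with heart muscle markers thus had the same Eno3 level as the other. Pkm, the kinase that makes pyruvate, measured 617.5 and 613.7 FPKM in WT and 693.4 and 679.8 FPKM in KO, 1.12-fold higher (log2 fold change 0.16 ± 0.031, adjusted p = 0.00330). Gene totals cannot separate its M1 and M2 splice forms.

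Several of the abundant genes have near copies in the genome, which limits how their levels can be read. Of the 50-base stretches in protein-coding GENCODE vM21 transcripts of Gapdh, 58.4% also occur in transcripts of other genes, 218 of them, of which 209 are annotated as pseudogenes. The share was 68.0% for Pgk1, 49.5% for Eno1, 41.5% for Pgam1, 23.7% for Pkm and 10.4% for Ldha. It was 22.9% for Pfkfb2, 21.0% for Ldhb, 18.6% for Gpi1, 14.8% for Mpc1, 8.83% for Pfkm, 6.83% for Tpi1 and 6.57% for Aldoa. It was 0 for Slc2a1, Hk1, Hk2, Adpgk, Pfkp, Aldoc, Pfkfb4, Pgm1, Pgm2 and Slc16a1, among others. Tpi1 had 15.8 and 16.4 times the FPKM of Gapdh in WT and 19.0 and 17.4 times in KO. Eno1b, a copy that holds 48.4% of the Eno1 stretches, measured 251.9 and 241.7 FPKM in WT and 246.5 and 240.3 FPKM in KO. How the authors counted reads that fit several genes was not stated in the sources at hand. The levels of genes with shared stretches are thus uncertain, above all those of Gapdh, Pgk1, Eno1 and Pgam1.

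The lactate branch did not move as a unit, since Ldha fell and the transporter gene Slc16a1 rose. Ldha, the muscle-type lactate dehydrogenase subunit that dominates in tumours, measured 361.6 and 366.3 FPKM in WT and 319.1 and 323.2 FPKM in KO. Both KO libraries lay below both WT libraries, and Ldha fell by 0.18 ± 0.031 on the log2 scale (adjusted p = 0.00179). Ldha was the only member that fell whose call held under all alternatives that gave it a value and set no minimum fold, with an adjusted p from 6.5e-04 to 0.0207. Slc16a1, which encodes the lactate and pyruvate transporter MCT1, measured 57.8 and 57.7 FPKM in WT and 70.8 and 73.3 FPKM in KO, 1.247-fold higher (log2 fold change 0.31 ± 0.038, adjusted p = 3.1e-04). The FPKM ratio of Slc16a1 to Ldha was 0.160 and 0.157 in WT and 0.222 and 0.227 in KO. Slc16a3, which encodes MCT4, the lactate exporter typical of glycolytic cells, had 2 reads over the 4 libraries, and a count of 0 allows up to 0.0251 FPKM in WT replicate 2 and 0.0231 FPKM in DHODH KO replicate 1. MCT4 RNA was thus at the limit of detection in both genotypes.

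Ldhb, the heart-type lactate dehydrogenase subunit, could not be read as higher or lower. It measured 3.47 and 3.39 FPKM in WT, and in KO 1.67 FPKM in the first replicate but 5.05 FPKM in the second, on 160, 153, 82 and 248 recovered reads. The KO libraries thus lay on opposite sides of WT, and the log2 fold change was -0.14 ± 0.321 (adjusted p = 0.717). It was 0.45 (adjusted p = 0.00541) when DHODH KO replicate 1 was left out and -0.73 (adjusted p = 3.0e-04) when replicate 2 was, over a range of adjusted p up to 0.837, and each of these fits rests on a single KO library. The high library is the one with the heart muscle markers, and the part of those cells or transcripts in the Ldhb value was not tested. Ldhb stayed at 1.54% or less of lactate dehydrogenase FPKM in all libraries.

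**Figure D4:**
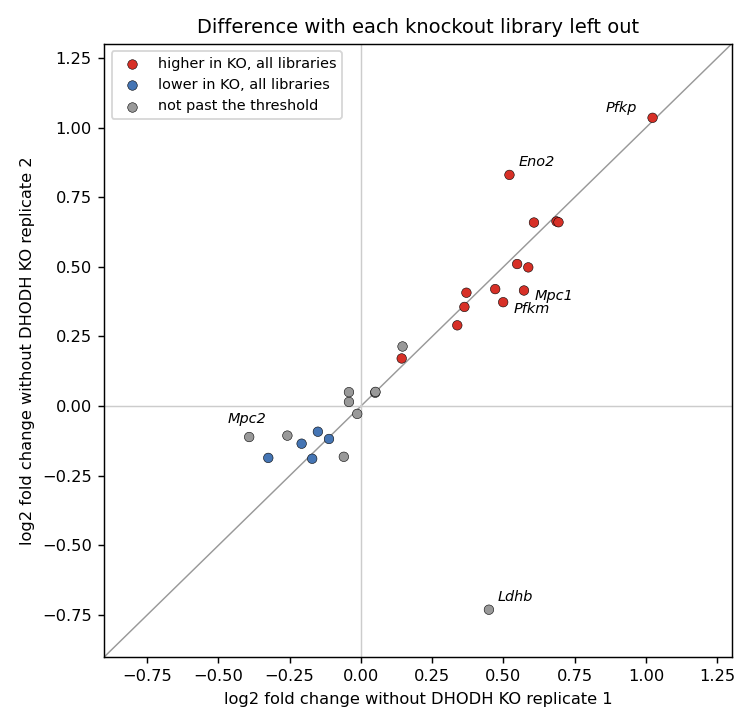
Log2 fold change of the 29 tested genes without DHODH KO replicate 1 (x axis) against that without DHODH KO replicate 2 (y axis), colored by the call with all libraries; the line marks equal values. Most genes lie near the line, Ldhb lies far off it at 0.45 and -0.73, and Eno2 reads 0.52 and 0.83.

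The mitochondrial pyruvate carrier is a pair of subunits, MPC1 and MPC2, both of which are needed for transport. Mpc1 measured 11.9 and 9.08 FPKM in WT and 14.2 and 16.0 FPKM in KO and rose 1.44-fold (log2 fold change 0.49 ± 0.116, adjusted p = 0.00755). Its WT libraries differed by more than those of most members, and the value was 0.31 without WT replicate 2 and 0.42 without DHODH KO replicate 2, while testing every gene, low values included, ended the call (adjusted p = 0.0860, the highest of a range from 1.5e-04). Mpc2 measured 20.4 and 27.3 FPKM in WT and 21.8 and 17.8 FPKM in KO. These groups overlapped, and the log2 fold change of -0.25 ± 0.137 was not past the threshold (adjusted p = 0.143), though leaving out WT replicate 1 (-0.45, adjusted p = 0.00417) or DHODH KO replicate 1 (-0.39, adjusted p = 0.0431) made it so, over a range up to 0.702. The carrier's summed FPKM was 32.4 and 36.4 in WT and 36.0 and 33.8 in KO.

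Other genes around the pathway, on a list of 55 chosen by function, included 30 that passed the filter. Of these, 8 rose, 11 fell and 11 were not called, with a median log2 fold change of -0.02, beside backgrounds of 64.7% called, 35.6% higher and 29.1% lower over all tested genes. The called share of the list was near that background. Bsg, the chaperone that brings MCT1 to the membrane, measured 260.8 and 262.5 FPKM in WT and 335.8 and 349.7 FPKM in KO (log2 fold change 0.39 ± 0.034, adjusted p = 7.5e-05). Pdk1 and Pdk2, kinases that switch off pyruvate dehydrogenase, rose by 0.28 and 0.68 on the log2 scale, whereas Pdk3, named after its value was seen, fell by 0.34. Me1, which makes pyruvate from malate, and Ugp2, which makes UDP-glucose, rose by 0.96 and 0.60. Pfkfb1, the liver form of the PFKFB enzymes, fell from 1.67 and 1.30 FPKM to 0.447 and 0.618 FPKM. The mitochondrial gluconeogenic enzyme gene Pck2 and the galactokinase gene Galk1 fell by 0.65 and 0.54 on the log2 scale. The KO mean of Pfkfb1 (0.533 FPKM) and the WT mean of Pdk2 (0.984 FPKM) lay under the filter. Both genes were therefore tested only through the genotype where they were higher, which limits their calls. Pgam2, the muscle form of phosphoglycerate mutase, lay below the filter, and is named after its values were seen. It was at 1.02 FPKM in DHODH KO replicate 2 and at most 0.0312 FPKM in the other libraries, so it followed the heart muscle markers.

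Among 15 regulators of glycolytic genes, 12 were tested, of which 4 rose, 2 fell and 6 were not called, beside the 64.7% of all tested genes that were called. Hif1a, the oxygen-regulated subunit of HIF-1, measured 56.2 and 54.7 FPKM in WT and 32.3 and 33.0 FPKM in KO, a fall of 0.75 ± 0.040 on the log2 scale (adjusted p = 8.5e-06). Its protein is controlled mainly by degradation, which RNA does not show. Txnip, which restrains glucose uptake and is induced by glucose through MondoA, measured 26.9 and 26.0 FPKM in WT and 48.8 and 53.8 FPKM in KO, 1.94-fold higher (log2 fold change 0.93 ± 0.055, adjusted p = 1.3e-05). Mlxip, the gene of MondoA, and Arrdc4 are named after their values were seen. Mlxip fell by 0.19 ± 0.065 on the log2 scale (adjusted p = 0.0344), and Arrdc4 was not called (0.075 ± 0.121, adjusted p = 0.609). Myc, named after its value was seen, measured 207.7 and 205.9 FPKM in WT and 214.4 and 210.2 FPKM in KO (adjusted p = 0.331).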

How the data were processed

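RNA of the 4T1 cells was extracted with TRIzol and sequenced from Illumina libraries, per the labels' protocols. The authors deposited a single table of FPKM per gene, with 1 column per sample, and the columns were matched to the labels by name. The build GRCm39 and the tools fastp and HTSeq are named, per the submitters' processing notes. For the aligner, the annotation, strand and reads that fit several genes, the steps were not given in the sources used here.

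Genes averaging 1 FPKM or more entered a two-sided limma-trend test (limma 3.58.1, R 4.3.3) of KO against WT on log2(FPKM + 1), with no covariate. It was checked on simulated data. Whole reads were sought from the FPKM steps as multiples of 1 read, to a limit of 20000, and taken as whole within 0.002 of a read. They were recovered for 98.4% of genes and 24 of the 31 members, as the smallest whole numbers that fit, so true reads may be a multiple. Counts of 0 allow up to 3 reads, which covers counting error only. Sequences come from RefSeq (GRCm38.p6, matched by Entrez identifier) and GENCODE vM21. No coordinates of the authors' build are given. Tables and plots were made with pandas 2.3.3 and Matplotlib 3.10.9 in Python 3.11.15. Alternatives changed the pseudocount, filter, scaling, variance model, test and replicate block, or left out each library.

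All members are described; of the related lists, those named are the called genes that moved by 0.5 or more on the log2 scale, together with Hif1a, Bsg, Pdk1 and Txnip, and others are marked. Members, lists and tests were chosen with earlier results of these data known.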

Additional observations from a re-analysis of the deposited data

How the results depend on the processing

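Each called member kept its direction under every one of the 15 or 16 alternatives that gave it a value; voom gave none for Gpi1, Aldoa, Pgk1, Pkm and Ldha, and the stricter filter none for Eno2 and Pfkfb4. Of the 14 members that rose, 13 kept their call under every alternative that gave them a value and set no minimum fold; Mpc1 lost it with no filter. Testing against a log2 fold change of 0.5 with limma's treat left 569 genes higher and 319 lower over all genes, 1 member higher (4 at an unadjusted p under 0.05) and 0 lower (0 at an unadjusted p under 0.05), and 2 related genes higher and 1 lower. The count of members that fell was 5 of 29, beside 2958 of 10170 genes. It was 3 with no filter (2638 of 16695 genes), 3 without the variance trend (2861 of 10170) and 3 by voom (3111 of 9899). Voom covered 22 of the tested members since reads of the most abundant were not recovered. The count was 7 with median-ratio scaling (3277 of 10170 genes) and 6 with quantile normalization (3392 of 10170). The count of members that fell also changed when a library was left out. Those fits hold 1 library for a genotype, so no counts are given for them. The small log2 fold changes of Pgam1 (-0.037 with median-ratio scaling, -0.014 with quantile normalization, -0.019 with voom, -0.042 to 0.050 when libraries were left out), of Hk1 (-0.042 to 0.015 when a library was left out) and of Eno1 (0.083 with quantile normalization) changed sign, as did Ldhb (-0.731 to 0.449 when libraries were left out). With the replicate number as a block, 14 members were higher and 6 lower, Bpgm being added, beside 3681 genes higher and 3001 lower of 10170. Same-numbered libraries deviated together with a correlation of 0.0463. That value cannot show whether they share a culture or a preparation, which the labels do not give. With 2 libraries per genotype, no exact test of a single value could pass a threshold of 0.05. Recovered reads of at most 2 per library limit what can be said of Slc2a3 and Slc16a3.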
